A study of Mus musculus with 55 samples.

Results

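Kupffer cells (KC, the resident macrophages of the liver) were compared with liver sinusoidal endothelial cells (LSEC) sorted from mouse liver after partial hepatectomy (PH, surgical removal of part of the liver). The members are the 3 libraries titled PH KC and the 5 titled PH LSEC, 8 of the 55 libraries of the series and 8 of its 28 PH libraries. All of them, and the 2 normal KC and 3 normal LSEC libraries used as background, came from mice of the C57B/L6 strain. Normal means liver without hepatectomy. The labels give no time after surgery, age, sex, sham operation or sort gate, and they do not say whether libraries came from separate animals, so p-values measure only the spread between these libraries, which may be technical. PH KC library 3 carries no cell type tag and was placed by its title and source label. Cells of 10 populations were sorted by FACS into TRIzol and RNA was sequenced on Illumina libraries. Values are FPKM, fragments scaled to transcript length and library size.

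KC line the sinusoids and clear particles, bacteria, old red cells and complement-coated material from portal blood. LSEC form a fenestrated wall without a basement membrane, take up soluble waste by scavenger and mannose receptors, and send angiocrine signals, such as Wnt ligands, to neighbouring hepatocytes. Both populations are niche cells for hepatocytes during regeneration. A ligand can act only where its receptor is made, so ligands, receptors and uptake genes were followed together.

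The PH libraries held 10646 to 11513 symbols at 1 FPKM or more. The Pearson correlation of log2(FPKM + 1) ran from 0.976 to 0.996 within PH KC, from 0.969 to 0.991 within PH LSEC, and from 0.801 to 0.836 between the populations. Of 11964 genes tested after PH, 4501 (37.6%) were called, that is, had a limma Benjamini-Hochberg adjusted p under 0.05 and a difference of at least 1 on the log2(FPKM + 1) scale. KC were higher for 2169 genes (18.1%) and LSEC for 2332 (19.5%), and the median difference over all genes, KC minus LSEC, was 0.01. Many genes were listed at exactly 0, those abundant in hepatocytes among them. Of genes at 300 FPKM or more in PH hepatocytes, KC libraries listed 59.7 to 63.1% at 0 and LSEC libraries 35.4 to 50.2%. Of genes under 10 FPKM in hepatocytes the shares were 42.1 to 45.7% in KC and 44.0 to 53.5% in LSEC, so the hepatocyte-abundant share was the higher one in every PH KC library and the lower one in every PH LSEC library. Genes at 0 are described below as listed at 0, and their fitted differences depend on the pseudocount. In sorted bulk samples, fewer cells of a type and less RNA per cell cannot be told apart.

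**Figure D1:**
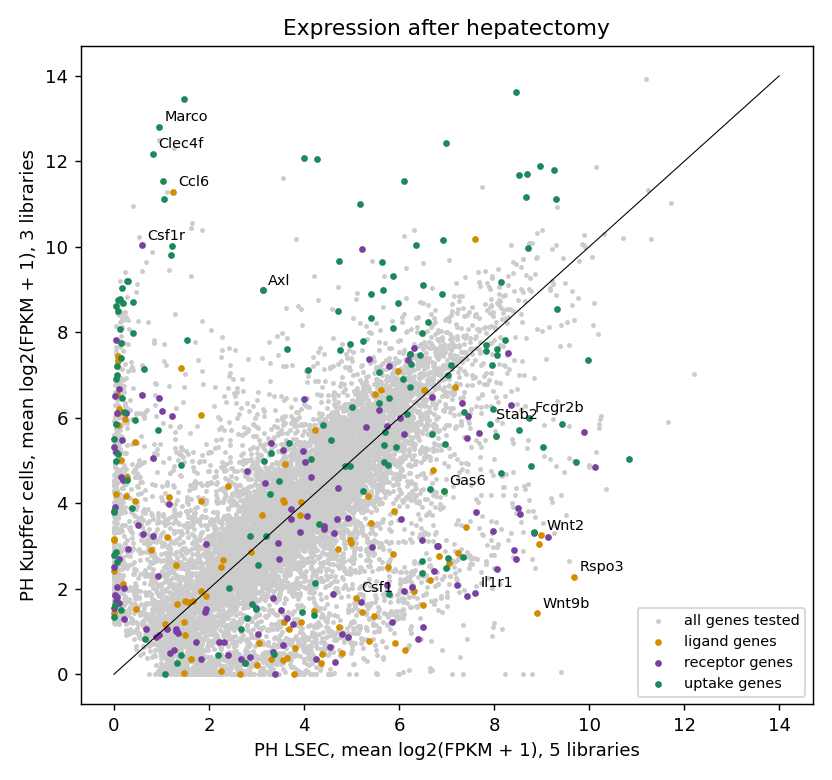
Mean log2(FPKM + 1) of each gene tested in the 5 PH LSEC libraries (x axis) and the 3 PH KC libraries (y axis), with ligand, receptor and uptake genes coloured and the diagonal drawn where both are equal. Marco and Clec4f lie at the top left, high in KC, and Wnt2, Wnt9b and Rspo3 at the lower right, high in LSEC.

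The given KC markers separated the populations without overlap. Clec4f, the lectin that defines KC in mouse liver (chr6:83594535-83606110, mm9), stood at 4294, 4549 and 5143 FPKM in the 3 KC libraries and at 2.15, 0.356, 0.522, 0.826 and 0.473 FPKM in the 5 LSEC libraries (log2 difference 11.36, SE 0.26, adjusted p = 7.98e-10). Marco, a scavenger receptor for bacteria and particles (chr1:122371114-122401661), reached 6906, 6794 and 7840.5 FPKM in KC against 3.75, 0.477, 0.208, 1.01 and 0.569 in LSEC (log2 difference 11.86, SE 0.39, adjusted p = 7.81e-09). Of the given LSEC markers, Wnt2, an angiocrine Wnt ligand (chr6:17938939-17980445), was at 8.19, 6.03 and 12.5 FPKM in KC and 494, 488, 408, 644 and 512 FPKM in LSEC (log2 difference -5.72, SE 0.23, adjusted p = 2.90e-08). Stab2, the hyaluronan clearance receptor (chr10:86303954-86470687), was at 56.7, 52.9 and 60.8 FPKM in KC and ranged from 71.7 to 812 FPKM in LSEC, with a difference of -2.07 (SE 0.70, adjusted p = 0.029). That call was lost without filter (adjusted p = 0.06) and when PH KC library 1, 2 or 3 or PH LSEC library 1 or 5 was left out (adjusted p from 0.053 to 0.081). Across the marker lists, all 20 KC markers were higher in KC (median difference 8.84) and all 20 LSEC markers in LSEC (median -4.33), in both cases beside the background shares given above.

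Mean LSEC marker levels, as mean log2(FPKM + 1), were 4.58, 4.23 and 5.32 in PH KC and 8.87, 8.35, 9.36, 8.42 and 9.12 in PH LSEC, with every KC value below every LSEC value. Normal KC libraries were at 7.91 and 8.29 and normal LSEC at 9.51, 9.70 and 9.09, a smaller gap. The PH LSEC sorts also carried vessel endothelium transcripts: 11 of the 11 tested markers of other vessels were higher in LSEC than in KC, and the list's summed level ran from 787 to 1691 FPKM in PH LSEC against 5.29 to 15.8 FPKM in PH KC. Von Willebrand factor (Vwf) was at 0.77, 0.427 and 2.57 FPKM in KC and 243, 355, 161, 559.8 and 254 FPKM in LSEC. Stellate and fibroblast markers gave 0 calls among 10 tested with limma, and 0 at an unadjusted p under 0.05. Both sorts carried them, with sums of 145, 120 and 75.1 FPKM in KC and 56.2, 195, 62.7, 16.8 and 271 FPKM in LSEC. Biliary markers summed to 6.72 to 20.7 FPKM in KC and 10.2 to 100 FPKM in LSEC. Megakaryocyte and platelet markers summed to 109 to 239 FPKM in KC and 11.8 to 22.3 FPKM in LSEC. The sums hide opposite directions: of 3 tested of 6, 1 was higher in KC and 2 in LSEC. Only 1 member averaged 1 FPKM or more in PH KC, against 3 in PH LSEC. Neutrophil markers summed to 35.2, 34.9 and 165 FPKM in the KC libraries, highest in library 3, and to 0.961, 0.571, 0.201, 3.05 and 1.39 FPKM in LSEC; all 3 tested of 9 were higher in KC (S100a8, S100a9 and Retnlg), while Ly6g, Elane and Camp were under 1 FPKM in every KC library. Monocyte markers summed to 383, 427 and 370.2 FPKM in KC and 108, 259.9, 79.5, 257 and 67.7 FPKM in LSEC, with 4 of 4 tested of 7 higher in KC. Erythroid markers summed to 40.2, 46.5 and 22.7 FPKM in KC and 3.08, 3.03, 4.91, 1.37 and 5.98 FPKM in LSEC, with 3 of 3 tested of 6 higher in KC, and Alas2 listed at 0 in KC. Mesothelial markers summed to 17.6, 3.54 and 4.39 FPKM in KC, highest in library 1, and to 0.491, 1.53, 0.632, 0.37 and 0.601 FPKM in LSEC, with 2 of 2 tested of 5 higher in KC. In PH LSEC, 0 neutrophil, 0 mesothelial, 1 monocyte and 1 erythroid marker averaged 1 FPKM or more, as did 5 of 12 vessel endothelium markers in PH KC. Many tested members thus passed the filter on low values only through the population where they are high. Their direction was largely set by that filter, so these counts add little to the sums. The part of these marker transcripts in the differences below was not tested.

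**Figure D2:**
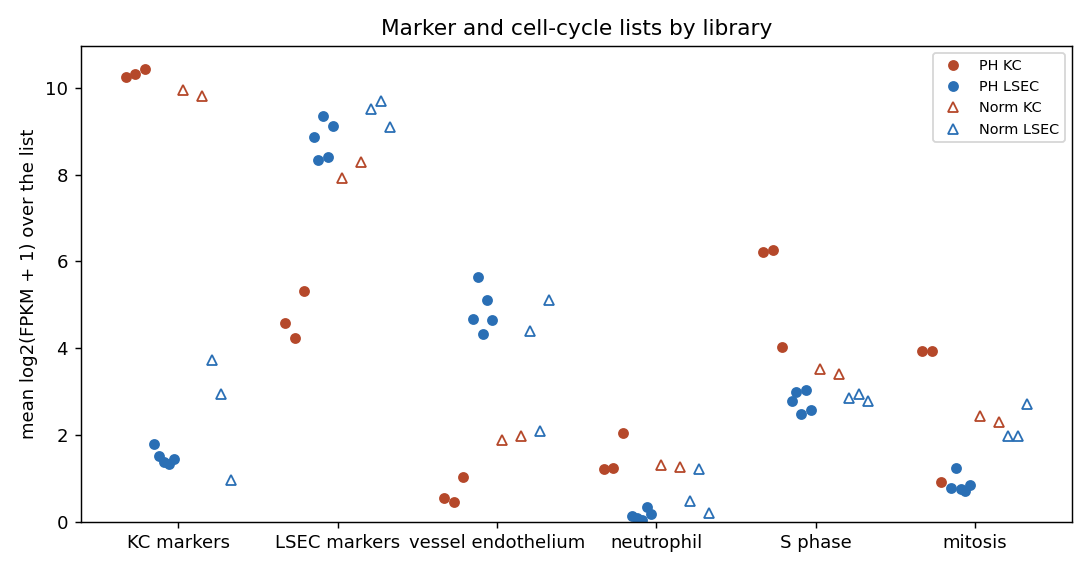
Mean log2(FPKM + 1) over each marker or cell-cycle list (x axis) in every library of the 4 groups, filled circles after PH and open triangles in normal liver. KC markers stand near 10 in KC and under 2 in PH LSEC, while the LSEC marker level of normal KC lies nearer to that of LSEC than the level of PH KC does, and PH KC library 3 lies below libraries 1 and 2 for S phase and mitosis.

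Promoters of 3 KC markers were chosen for print after the search because they hold a match, and those of Clec4f, Wnt2 and Wnt9b are named as genes without one. An earlier choice, made before matches were known, held Clec4f, Marco, Cd163, Stab2, Wnt2 and Wnt9b, which have no AGGAAGT match. The 250 bases upstream of the RefSeq start (GRCm38.p6, 5′ to 3′ on the gene's strand) were searched on both strands for AGGAAGT (an ETS-type motif such as PU.1 recognises), AGATAA (bound by factors of the GATA family) and TCACGTGA (an E-box of the type bound by TFEB). AGGAAGT was in 7.69% of all 32851 promoters, in 6 of the 15 KC markers with a promoter entry and in 1 of the 11 LSEC markers, Eng. AGATAA was in 9.99% of all promoters, in 1 of 15 KC markers and in 0 of 11 LSEC markers. These 3 were among 8 motifs searched and are given after the matches were seen. GAGGAAGT and CAGGAAGT, also searched, contain AGGAAGT, and GTCACGTG overlaps TCACGTGA. GAGGAAGT was in 2.44% of all promoters, in 1 of 15 KC markers and in 1 of 11 LSEC markers. CAGGAAGT was in 2.69% of all promoters, in 4 of 15 KC markers and in 0 of 11 LSEC markers. Shares of all promoters count promoter entries, while a listed gene counts when any of its entries holds the motif, so the 2 measures are not alike. A match is a description, not a site. Capitals mark the matches, in Lyz2 and C1qc as the reverse complement ACTTCCT. Clec4f (chr6:83656117-83656366 on the minus strand), Wnt2 (chr6:18030446-18030695 on the minus strand) and Wnt9b (chr11:103749822-103750071 on the minus strand) had none of the 3 motifs in this window.
Lyz2: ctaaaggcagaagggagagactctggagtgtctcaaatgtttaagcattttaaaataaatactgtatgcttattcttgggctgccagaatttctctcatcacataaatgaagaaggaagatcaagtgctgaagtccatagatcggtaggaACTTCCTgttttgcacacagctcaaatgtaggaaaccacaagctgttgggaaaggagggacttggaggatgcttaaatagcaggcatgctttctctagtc
C1qc: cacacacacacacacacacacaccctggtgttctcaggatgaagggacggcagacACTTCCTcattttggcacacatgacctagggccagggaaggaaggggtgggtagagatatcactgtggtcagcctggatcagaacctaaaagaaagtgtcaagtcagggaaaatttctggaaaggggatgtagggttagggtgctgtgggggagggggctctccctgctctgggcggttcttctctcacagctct
Folr2: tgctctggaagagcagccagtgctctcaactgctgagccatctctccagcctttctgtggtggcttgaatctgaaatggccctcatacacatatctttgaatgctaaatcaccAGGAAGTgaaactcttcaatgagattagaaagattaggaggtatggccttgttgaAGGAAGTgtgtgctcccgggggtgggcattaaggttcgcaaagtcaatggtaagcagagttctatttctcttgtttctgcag
Clec4f: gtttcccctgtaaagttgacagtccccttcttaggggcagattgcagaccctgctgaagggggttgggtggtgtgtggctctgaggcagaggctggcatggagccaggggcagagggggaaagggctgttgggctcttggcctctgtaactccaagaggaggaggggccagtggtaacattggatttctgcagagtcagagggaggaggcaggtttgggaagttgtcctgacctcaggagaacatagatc
Wnt2: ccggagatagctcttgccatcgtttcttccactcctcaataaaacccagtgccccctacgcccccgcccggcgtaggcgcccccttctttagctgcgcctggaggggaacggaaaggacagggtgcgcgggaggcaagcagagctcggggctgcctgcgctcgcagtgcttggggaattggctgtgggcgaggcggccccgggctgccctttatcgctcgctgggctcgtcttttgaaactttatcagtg
Wnt9b: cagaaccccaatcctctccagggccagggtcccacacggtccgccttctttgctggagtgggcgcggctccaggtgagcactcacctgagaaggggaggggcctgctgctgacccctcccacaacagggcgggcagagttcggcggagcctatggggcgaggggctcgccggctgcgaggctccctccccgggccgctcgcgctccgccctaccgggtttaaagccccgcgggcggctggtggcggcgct
Lyz2 lies at chr10:117282273-117282522 on the minus strand, C1qc at chr4:136892915-136893164 on the minus strand and Folr2, which holds 2 matches, at chr7:101857191-101857440 on the minus strand. Folr2, a folate receptor of resident macrophages, was at 1335, 1487 and 1224 FPKM in KC and 2.59, 1.28, 4.68, 1.79 and 3.83 FPKM in LSEC.

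Ligands divided between the niche cells, with 33 of 100 tested ligand genes (206 listed) higher in KC and 44 higher in LSEC, against 18.1% and 19.5% of all genes tested. The ligand lists include some antagonists and binding proteins. Counts of single lists below stand beside the same 2 shares. Some lie near them, such as growth factors higher in KC (25%) and Wnt and R-spondin receptors higher in KC (15.4%). Listed genes, like all genes tested, can pass the filter on low values only through the population where they are high. The direction of such genes was largely set by that filter, so their counts add little to their levels. In PH LSEC, 11 chemokines, 7 microbial sensors and 12 C-type lectins averaged 1 FPKM or more, where 19, 17 and 26 were tested. In PH KC, 13 contact and guidance ligands did, where 16 were tested. Wnt ligands and R-spondins were higher in LSEC: 3 of the 23 listed genes passed the filter on low values, and all 3, Wnt2, Wnt9b and Rspo3, were higher in LSEC. Wnt9b, a Wnt ligand of central vein endothelium (chr11:103588676-103611135), was at 1.45, 0.778 and 3.44 FPKM in KC and 482, 430.3, 309, 711 and 561 FPKM in LSEC (log2 difference -7.49, SE 0.33, adjusted p = 5.99e-08). Rspo3, a secreted enhancer of Wnt signalling (chr10:29172912-29255673), was at 4.85, 3.0 and 3.95 FPKM in KC and 865, 1084, 352, 1406 and 810.0 FPKM in LSEC (log2 difference -7.40, SE 0.39, adjusted p = 1.79e-07). Its lowest LSEC library, number 3, was the one with the highest Stab2, and its highest, number 4, the one with the lowest Stab2. Vwf followed the same order at both ends.

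TGF-beta, activin and BMP ligands, listed together with antagonists and binding proteins, were mostly higher in LSEC, with 9 of 15 tested and 1 higher in KC. Bmp2, which induces hepcidin in hepatocytes, was at 8.38, 5.63 and 19.5 FPKM in KC and 213, 94.5, 297, 86.3 and 259 FPKM in LSEC (log2 difference -3.96, SE 0.50, adjusted p = 9.71e-05). Inhbb, the activin beta B subunit, averaged 6.29 ± 5.66 FPKM in KC (SD, n = 3) and 132 ± 22.4 FPKM in LSEC (SD, n = 5). The follistatin-like gene Fstl1 (2.88 FPKM in KC and 90.6 FPKM in LSEC) and the latent TGF-beta binding gene Ltbp4 (4.32 FPKM in KC and 105 FPKM in LSEC) also were higher in LSEC. Gdf15, a stress-induced ligand, was the KC-higher member, at 14.2, 7.15 and 46.7 FPKM in KC and 0.148, 0.0628, 0.556, 0.0845 and 0.192 FPKM in LSEC, with library 3 of KC highest. Tgfb1 overlapped between the populations (103, 78.2 and 141 FPKM in KC, 146, 129.8, 120.4, 153 and 177 FPKM in LSEC, adjusted p = 0.088) and was not called.

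Growth factors split, with 13 of 28 tested higher in LSEC and 7 in KC. Igf1, an insulin-like growth factor, was at 105, 107 and 67.5 FPKM in KC and 0.0178, 0.101, 0, 0.069 and 0.0811 FPKM in LSEC (log2 difference 6.46, SE 0.18, adjusted p = 2.75e-09), and Pdgfc at 22.8, 24.2 and 23.8 FPKM in KC and 0.0265, 0.304, 0.292, 0.0781 and 0.367 FPKM in LSEC. Grn, the progranulin gene, had the highest KC mean of the list, 1172 ± 276 FPKM (SD, n = 3), against 193 ± 28.3 FPKM in LSEC (SD, n = 5). Edn1, the vasoconstrictor endothelin, was at 0.318, 0.637 and 0.544 FPKM in KC and 54.7, 169, 27.5, 89.6 and 65.4 FPKM in LSEC (log2 difference -5.54, SE 0.47, adjusted p = 5.61e-06). Tgfa, an EGF receptor ligand, averaged 0.449 FPKM in KC and 20.5 FPKM in LSEC, and Csf1 and Gas6, described with their receptors below, were also higher in LSEC. Hgf, the hepatocyte mitogen, was at 19.4, 17.9 and 14 FPKM in KC and 69.9, 17.3, 60.5, 20.1 and 66.6 FPKM in LSEC and was not called (log2 difference -1.18, SE 0.48, adjusted p = 0.06). LSEC libraries 1, 3 and 5 were above 60 FPKM, and libraries 2 and 4 lay within or just above the KC range. A call was made without LSEC library 2 (adjusted p = 0.013) or 4 (adjusted p = 0.027), with the replicate block (adjusted p = 0.042) and in a fit of all 20 groups (adjusted p = 0.011). Vegfa was listed at 0 in all 3 KC libraries and at 13.8, 23.2, 10.2, 9.12 and 11.8 FPKM in LSEC.

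Inflammatory ligands were more often higher in KC. Of 19 tested cytokines 10 were higher in KC and 3 in LSEC. Il1b, a principal inflammatory cytokine of macrophages, was at 58, 67.1 and 97.1 FPKM in KC and 0.24, 0, 0, 0.14 and 0 FPKM in LSEC (log2 difference 6.10, SE 0.19, adjusted p = 6.60e-09). Il18, its inflammasome-processed relative, stood at 162, 176 and 146 FPKM in KC and at most 0.166 FPKM in LSEC. Il10, an anti-inflammatory cytokine, reached 7.34, 7.34 and 9.41 FPKM in KC and was listed at 0 in all 5 LSEC libraries. Il33, an alarmin, went the other way, at 2.53, 1.4 and 2.43 FPKM in KC and 80.5, 87.2, 83.9, 110.0 and 89.9 FPKM in LSEC (log2 difference -4.88, SE 0.17, adjusted p = 1.20e-08). Il1a did not differ beyond its spread (83.6, 92.8 and 129 FPKM in KC and 98.6, 120.2, 109, 65.4 and 76.1 FPKM in LSEC, adjusted p = 0.67).

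Chemokines were higher in KC for 14 of 19 tested and in LSEC for 2. Ccl6 was the most abundant, at 2219, 2252 and 3112 FPKM in KC and 2.1, 0.883, 1.58, 1.34 and 1.13 FPKM in LSEC (log2 difference 10.04, SE 0.19, adjusted p = 3.72e-10). Ccl24, an eosinophil attractant, was at 159.8, 163 and 198 FPKM in KC and at most 0.19 FPKM in LSEC, and Ccl9 at 44.2, 48.4 and 149 FPKM against at most 0.154 FPKM. Ccl3 and Ccl9 were both highest in KC library 3, the library with the largest neutrophil sum. The 2 LSEC-higher members were Cxcl1, listed at 0 in all 3 KC libraries and at 96.9 FPKM in PH hepatocytes, and Cxcl10 (10.7, 13.9 and 7.89 FPKM in KC and 159, 11.5, 56.7, 18.5 and 61.9 FPKM in LSEC), whose call (adjusted p = 0.047) was lost without any 1 of KC libraries 1 to 3 or LSEC libraries 1, 3 and 5 (adjusted p from 0.064 to 0.14), with no filter (0.09) and with quantile normalization (0.057). Ccl2, the monocyte attractant, was at 79.3, 95.9 and 130.1 FPKM in KC and 74.1, 35.9, 32, 91.1 and 32.2 FPKM in LSEC, and its call (adjusted p = 0.038) was lost without any 1 of KC libraries 1 to 3 or LSEC libraries 2, 3 and 5 (adjusted p from 0.052 to 0.14), with no filter (0.071), with upper-quartile scaling (difference 0.99), with quantile normalization (0.061) and in a fit of all 20 groups (0.078).

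Contact and guidance ligands were mostly higher in LSEC: 14 of 16 tested Notch ligands, ephrins and semaphorins were higher in LSEC and 1 in KC. Sema3f was the most abundant, at 6.35, 3.83 and 15.2 FPKM in KC and 506, 521, 432, 482 and 510.0 FPKM in LSEC (log2 difference -5.88, SE 0.33, adjusted p = 2.51e-07). Dll1, a Notch ligand, was at 0.322, 0.454 and 1.57 FPKM in KC and 42.2, 48.6, 33.5, 43.2 and 35.7 FPKM in LSEC. Jag1 averaged 0.423 FPKM in KC and 29.9 FPKM in LSEC, and Dll4 1.36 FPKM in KC and 13.8 FPKM in LSEC. The KC-higher member was Sema6d (88.1, 88.3 and 105 FPKM in KC and 51.9, 40.4, 50.5, 25.8 and 62.2 FPKM in LSEC), whose difference of 1.06 fell under 1 with quantile normalization (0.90), with the replicate block (0.97), without KC library 3 (0.98) and without LSEC library 4 (0.87).

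**Figure D3:**
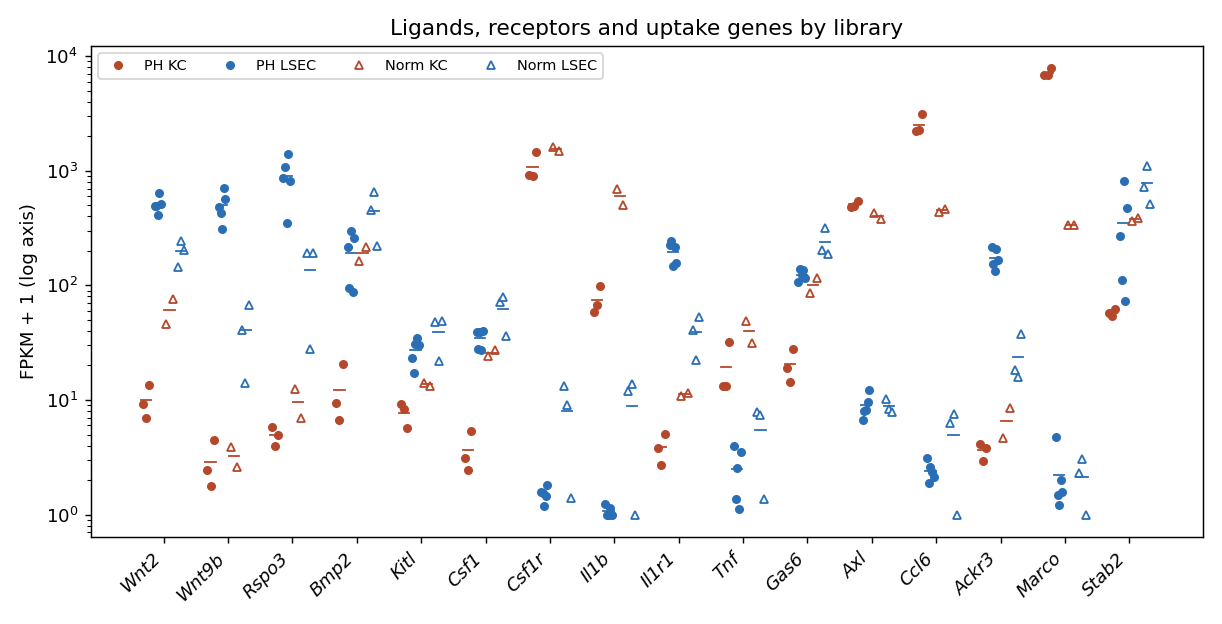
FPKM + 1 on a log axis for 16 ligand, receptor and uptake genes in each library of the 4 groups, with bars at the mean. Wnt2, Wnt9b, Rspo3, Kitl, Csf1, Il1r1, Gas6 and Ackr3 stand higher in PH LSEC, and Csf1r, Il1b, Tnf, Axl, Ccl6 and Marco in PH KC.

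Receptors also divided, with 47 of 135 tested receptor genes (193 listed) higher in KC and 58 in LSEC. These shares, 34.8% and 43.0%, stand against 18.1% and 19.5% of all genes tested. Among receptor tyrosine kinases and colony-stimulating factor receptors, 16 of 28 tested were higher in LSEC and 7 in KC. Csf1r, the receptor through which macrophages survive, was at 913, 890.4 and 1443 FPKM in KC and 0.579, 0.558, 0.185, 0.459 and 0.829 FPKM in LSEC (log2 difference 9.45, SE 0.20, adjusted p = 5.77e-10). Axl, a receptor of the TAM family that senses dying cells, was at 483, 495 and 544 FPKM in KC and 5.75, 7.08, 7.13, 8.66 and 11.3 FPKM in LSEC (log2 difference 5.85, SE 0.19, adjusted p = 7.64e-09). Tie1 and Tek, angiopoietin receptors of endothelium, were higher in LSEC. Tie1 was at 7.2, 4.31 and 17.1 FPKM in KC and 586, 614, 407, 699 and 528 FPKM in LSEC, and Tek at 8.13, 6.17 and 13.5 FPKM in KC and 462, 347, 522, 492 and 473 FPKM in LSEC. The VEGF receptor Flt1 averaged 4.93 FPKM in KC and 278 FPKM in LSEC, and Kdr 13.4 FPKM in KC and 417 FPKM in LSEC. Egfr and Met, the receptors of EGF ligands and of Hgf, were at most 0.166 and 0.263 FPKM in LSEC and did not pass the filter.

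Wnt and R-spondin receptors were higher in LSEC for 7 of 13 tested and in KC for 2. Fzd4 was at 2.75, 2.4 and 4.61 FPKM in KC and 91.8, 44.7, 99.7, 65.3 and 97.4 FPKM in LSEC, Fzd6 averaged 0.223 FPKM in KC and 25.2 FPKM in LSEC, and Lrp5 66.1 FPKM in KC and 178 FPKM in LSEC. The KC-higher members were Fzd7 (10.4, 8.19 and 12.9 FPKM in KC and 0.277, 0.173, 0.231, 0.588 and 0.978 FPKM in LSEC) and Znrf3, a membrane E3 ligase that removes frizzleds, which averaged 1.46 FPKM in KC and 0.166 FPKM in LSEC. TGF-beta and BMP receptors were higher in LSEC for 7 of 13 and in KC for 2: Eng, the co-receptor endoglin, averaged 30.9 ± 17.1 FPKM in KC (SD, n = 3) and 1133 ± 260.0 FPKM in LSEC (SD, n = 5), Tgfbr2 79.5 FPKM in KC and 329.5 FPKM in LSEC, and Tgfbr1, higher in KC, 37.1 FPKM in KC and 10.9 FPKM in LSEC. Notch, plexin, Robo and Unc5 receptors were higher in LSEC for 11 of 14 tested and in KC for 2. Robo4, Plxnd1 and Notch1 averaged 3.52, 13.5 and 8.36 FPKM in KC and 149, 201 and 89.4 FPKM in LSEC.

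Cytokine and TNF receptors were more evenly split, with 15 of 39 tested higher in KC and 12 in LSEC. Il1r1, the signalling IL-1 receptor, was at 2.84, 1.73 and 4.05 FPKM in KC and 223, 243, 148, 213 and 155 FPKM in LSEC (log2 difference -5.69, SE 0.24, adjusted p = 4.43e-08). Il10ra and Il18bp, the latter a soluble decoy for Il18, averaged 68.8 and 988 FPKM in KC and 0.044 and 36.5 FPKM in LSEC. Osmr, the oncostatin receptor, was at 0.862, 0.367 and 1.73 FPKM in KC and 28.5, 31.6, 33.2, 17.6 and 26.1 FPKM in LSEC, and Il6st, the gp130 chain shared by IL-6 cytokines, at 44.3, 36.7 and 75.6 FPKM in KC and 1081, 556, 1700.3, 678 and 1102 FPKM in LSEC. Tnfrsf1b, a TNF receptor, was at 74.7, 75.4 and 119 FPKM in KC and 0.401, 1.56, 0.587, 1.04 and 1.28 FPKM in LSEC, while Tnfrsf1a was not called (161, 148 and 259 FPKM in KC and 332, 272, 337, 292 and 332 FPKM in LSEC, difference -0.76, and called at -1.01 without KC library 3, with an adjusted p of 0.00093, and at -1.02 with quantile normalization, with an adjusted p of 0.0045). Chemokine receptors were higher in KC for 6 of 11 tested and in LSEC for 4. The LSEC members, Ackr1 to Ackr4, are atypical receptors, which bind chemokines without signalling through G proteins: Ackr3 was at 3.17, 1.91 and 2.8 FPKM in KC and 215, 153, 132, 205 and 165 FPKM in LSEC, Ackr2 averaged 1.4 FPKM in KC and 57.1 FPKM in LSEC, and Ackr4 0.303 FPKM in KC and 18.4 FPKM in LSEC. Toll-like and other microbial sensors were higher in KC for 13 of 17 tested. Tlr13, an endosomal sensor of bacterial RNA, was at 77.8, 87.5 and 108 FPKM in KC and 0.0700, 0, 0, 0.00993 and 0 FPKM in LSEC, and Tlr3, the LSEC-higher member, at 10.8, 10.8 and 7.36 FPKM in KC and 21.6, 17.1, 24.9, 17.6 and 21.6 FPKM in LSEC (difference -1.02, which was -0.99 with quantile normalization, -0.86 without KC library 3 and -0.95 without LSEC library 3).

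**Figure D4:**
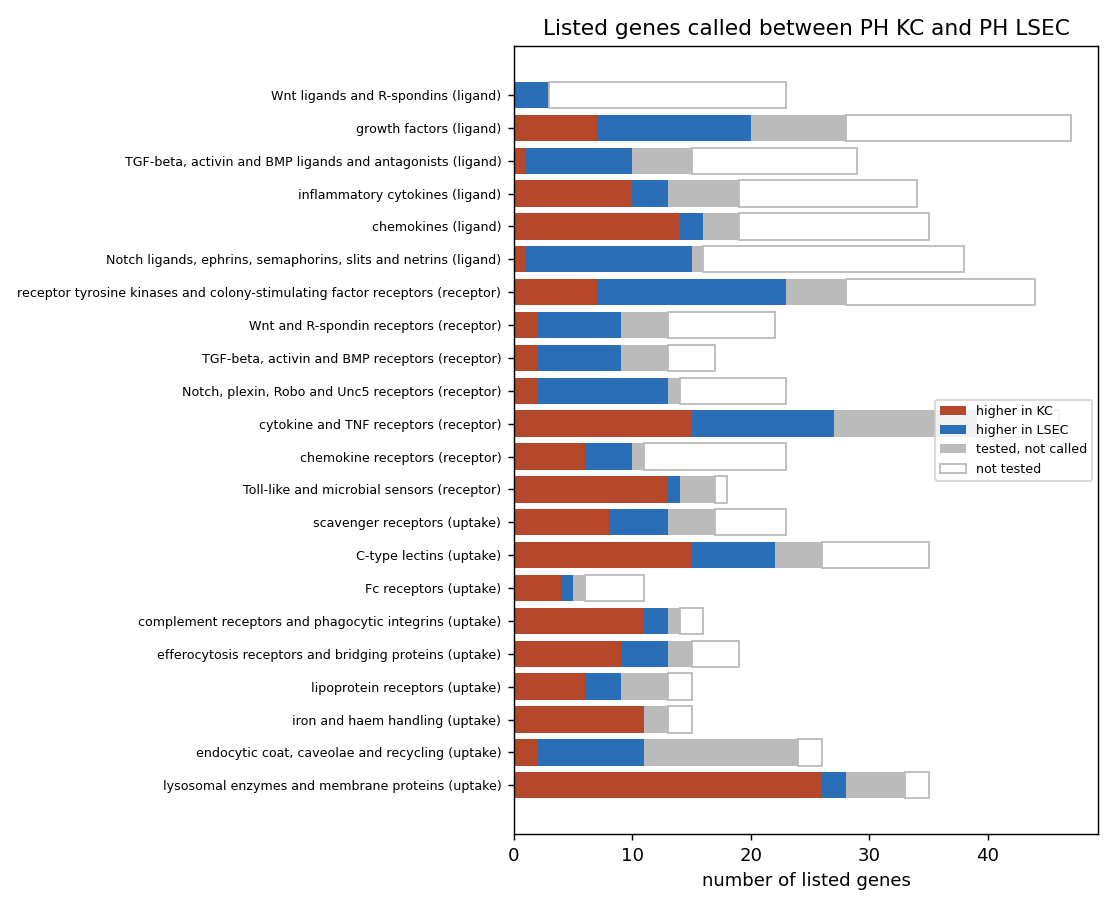
Number of listed genes (x axis) of each ligand, receptor and uptake list called higher in KC, higher in LSEC, tested and not called, or not tested, after PH. Lysosomal, iron, complement and microbial sensor lists are mostly KC-higher, and among the members tested, guidance ligands and Wnt genes are mostly LSEC-higher. Most listed Wnt and guidance ligands were not tested.

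Pairs of ligand and receptor showed several crossings between the populations, given as levels with no test of the pair. Csf1 was at 2.14, 1.45 and 4.4 FPKM in KC and 38.2, 27.1, 38, 26.6 and 39.2 FPKM in LSEC, while its receptor Csf1r was high in KC, as given above. Gas6, the ligand that bridges dying cells to TAM receptors, was at 17.9, 13.4 and 26.9 FPKM in KC and 105, 137, 122, 136 and 116 FPKM in LSEC (log2 difference -2.65, SE 0.21, adjusted p = 3.35e-06), with Axl high in KC. Mertk, another Gas6 receptor, averaged 179 FPKM in KC and 85.9 FPKM in LSEC, a difference of 1.25 (adjusted p = 0.036) that lost its call when PH KC library 1, 2 or 3 or LSEC library 2 or 4 was left out, with no filter (adjusted p = 0.068) and with upper-quartile scaling (0.054) or quantile normalization (0.11). In the other direction, Il1b was high in KC and Il1r1 in LSEC. Jag1 was higher in LSEC and Notch2 in KC (12.2, 11.7 and 22.3 FPKM in KC and 1.11, 1.52, 1.66, 0.588 and 1.54 FPKM in LSEC). Other pairs lay within LSEC, namely Kitl (6.78 FPKM in KC and 26.2 FPKM in LSEC) with Kit (5.92 FPKM in KC and 361 FPKM in LSEC), Dll4 with Notch1, and Wnt2 and Wnt9b with Fzd4. Il10 (8.03 FPKM in KC, listed at 0 in LSEC) and Il10ra were both higher in KC. Rspo3 had its receptor Lgr4 low in both, at 1.48, 1.66 and 0.393 FPKM in KC and 1.07, 1.34, 0.363, 1.43 and 1.95 FPKM in LSEC, and Cxcl12 overlapped between them (11.6, 8.56 and 2.22 FPKM in KC, 3.96, 14.3, 5.85, 1.06 and 19.8 FPKM in LSEC). Tnf, the macrophage cytokine, was at 12.3, 12.3 and 30.8 FPKM in KC and 2.99, 0.381, 1.54, 0.13 and 2.49 FPKM in LSEC, and its receptor Tnfrsf1a was present in both.

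Uptake genes were higher in KC for 89 of 157 tested (191 listed) and in LSEC for 33. The KC share was 56.7%, against 18.1% of all genes tested. The LSEC share, 21.0%, was near the 19.5% of all genes. Of the tested uptake genes, 89 lay under 10 FPKM in hepatocytes, and among those 48 were higher in KC and 27 in LSEC. Scavenger receptors were higher in KC for 8 of 17 and in LSEC for 5. Beside Marco, Cd5l, a secreted scavenger protein of macrophages, was at 12087, 12657 and 9537 FPKM in KC and 4.82, 1.44, 0.629, 1.99 and 1.35 FPKM in LSEC, and Cd163, the haemoglobin-haptoglobin receptor, at 490.0, 485 and 858 FPKM in KC and 0.47, 0.0182, 0, 0.28 and 0.37 FPKM in LSEC. Msr1, scavenger receptor A, was at 850.0, 969.7 and 620.2 FPKM in KC and 37.8, 54.4, 118, 15.8 and 69 FPKM in LSEC. Stab1, Scarf1 and Lyve1, which were higher in LSEC as were Stab2 and the low Scarf2, averaged 52.3, 19.5 and 26.7 FPKM in KC and 396, 100.4 and 290.0 FPKM in LSEC. Mrc1, the mannose receptor, did not differ beyond its spread (187, 178 and 218 FPKM in KC and 279, 132, 645, 149 and 388 FPKM in LSEC, adjusted p = 0.42). C-type lectins were higher in KC for 15 of 26 and in LSEC for 7, with Clec4n (296, 351 and 449 FPKM in KC and 0.11, 0, 0, 0.0997 and 0.0795 FPKM in LSEC) among the former and the thrombomodulin gene Thbd (24.3, 19.9 and 66.7 FPKM in KC and 2204, 1529, 1476, 2247 and 1841 FPKM in LSEC) among the latter.

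Fc and complement receptors, which take up opsonised particles, were more often higher in KC. Of 6 Fc receptors tested 4 were higher in KC and 1 in LSEC. Fcgr1, the high-affinity IgG receptor, was at 139, 149 and 157 FPKM in KC and 0.14, 0.0195, 0, 0.0198 and 0.0298 FPKM in LSEC, and Fcgr4 at 382, 419.9 and 529 FPKM in KC and 0.19, 0, 0, 0.21 and 0.109 FPKM in LSEC. Fcgr2b, the inhibitory receptor known for its abundance on LSEC, was at 54.6, 49.3 and 93.7 FPKM in KC and 429, 315, 1177, 298 and 299.6 FPKM in LSEC (log2 difference -2.74, SE 0.46, adjusted p = 6.25e-04). Fcgrt, the neonatal Fc receptor that recycles IgG, differed by -0.78 and was not called, but with quantile normalization it was (-1.16, adjusted p = 0.0012). Complement receptors and phagocytic integrins were higher in KC for 11 of 14, led by Vsig4, the complement C3b receptor, at 2666, 2973 and 3273 FPKM in KC and 1.11, 1.04, 1.09, 1.62 and 0.497 FPKM in LSEC. This list also holds C1qa, C1qb and C1qc, which are complement components and not receptors. They are KC markers as well, and they count among the KC-higher members. Cd55, which protects cells from complement, and Itgb3 were the LSEC-higher members, averaging 39.5 and 1.65 FPKM in KC and 529.9 and 19.3 FPKM in LSEC. Receptors and bridging proteins for dying cells were higher in KC for 9 of 15 and in LSEC for 4: Timd4, a phosphatidylserine receptor, was at 539.8, 567 and 472 FPKM in KC and 0.249, 0.148, 0.0875, 0.0794 and 0.039 FPKM in LSEC, while the bridging proteins Mfge8 (4.84 FPKM in KC and 126 FPKM in LSEC), Gas6 and Pros1 (46.9 FPKM in KC and 263 FPKM in LSEC) were higher in LSEC. The receptor Tyro3 was also called higher in LSEC, so the LSEC-higher members were not bridging proteins alone.

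Handling of lipid, iron and endocytosed cargo also differed. Iron and haem genes were higher in KC for 11 of 13 tested and in LSEC for 0 with limma, also at an unadjusted p under 0.05. Slc40a1, the iron exporter ferroportin, was at 1708, 1929 and 2617 FPKM in KC and 35.6, 18.6, 77.9, 16.1 and 62.7 FPKM in LSEC, and Slc11a1, a phagosomal metal transporter, at 405, 414 and 467 FPKM in KC and 0.0994, 0, 0, 0 and 0.22 FPKM in LSEC. Hmox1, the haem-degrading oxygenase, was at 1756, 1821 and 8343 FPKM in KC and 76.2, 72.2, 65.4, 63.3 and 63.1 FPKM in LSEC, with KC library 3 far above the other KC libraries. Lpl, lipoprotein lipase, was at 942, 947 and 802 FPKM in KC and 0.789, 2.53, 1.34, 0.229 and 2.54 FPKM in LSEC, and Gpihbp1, which anchors Lpl on endothelium, at 57, 37.8 and 85 FPKM in KC and 541, 818, 663, 597 and 863 FPKM in LSEC. Endocytic coat and caveolar genes were the exception: 9 of 24 tested were higher in LSEC and 2 in KC. Ehd3, a membrane-trafficking ATPase, and Sdpr, a cavin, averaged 30.8 and 9.04 FPKM in KC and 872 and 472 FPKM in LSEC.

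Lysosomal enzymes and membrane proteins were higher in KC for 26 of 33 tested, and for 2 in LSEC, with a median difference of 2.24 against 0.01 over all genes. Of these 33, 7 lay under 10 FPKM in hepatocytes, of which 4 were higher in KC and 2 in LSEC. Ctss, a macrophage cathepsin, was at 1952, 2051 and 2717 FPKM in KC and 2.05, 0.693, 0.37, 1.15 and 1.63 FPKM in LSEC (log2 difference 10.05, SE 0.26, adjusted p = 1.69e-09). Ctsd, a cathepsin of most lysosomes, was at 3683, 3936 and 3796 FPKM in KC and 504, 362, 619.6, 509 and 558 FPKM in LSEC (log2 difference 2.92, SE 0.20, adjusted p = 1.12e-06). The LSEC-higher members were Dnase1l3 and Ctsk, averaging 29.3 and 0.41 FPKM in KC and 504 and 10.3 FPKM in LSEC. Both promoters of this list are shown because they hold the TCACGTGA E-box. It was in 0.785% of all promoter entries and, by any entry of a gene, in 4 of the 26 lysosomal genes with an entry (Ctsa, Ctsd, Gla and Mcoln1). Mcoln1, a lysosomal calcium channel, held it too and was not called (26.9, 27.6 and 30.5 FPKM in KC and 30.7, 31.9, 29.3, 22.2 and 27.5 FPKM in LSEC, adjusted p = 0.96).
Ctsd: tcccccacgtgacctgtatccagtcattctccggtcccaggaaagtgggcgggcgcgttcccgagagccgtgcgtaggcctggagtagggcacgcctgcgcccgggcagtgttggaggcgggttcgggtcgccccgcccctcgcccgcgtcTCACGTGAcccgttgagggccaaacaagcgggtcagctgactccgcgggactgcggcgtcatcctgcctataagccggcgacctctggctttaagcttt
Mcoln1: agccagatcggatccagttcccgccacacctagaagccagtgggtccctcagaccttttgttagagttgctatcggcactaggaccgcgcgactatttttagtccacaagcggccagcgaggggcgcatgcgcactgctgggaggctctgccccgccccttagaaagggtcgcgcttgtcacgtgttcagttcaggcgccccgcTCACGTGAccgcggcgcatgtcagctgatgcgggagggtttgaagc
They lie at chr7:142387828-142388077 on the minus strand and chr8:3500269-3500518 on the plus strand in GRCm38.p6, and the capitals mark the E-box.

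The genes with the widest separation, by the rule stated with the methods, were Cd5l, Marco, Wfdc17, Clec4f, Lyz2, Apoc1, Vsig4, Tyrobp, Ctss and Ccl6 in KC and S100a10, Lrg1, Igfbp4, Qsox1, Wnt9b, Rspo3, Rnase4, Vwf, Serpina3n and Selp in LSEC. Of the LSEC set, 6 of 10 are at 300 FPKM or more in PH hepatocytes and 5 of 10 were listed at 0 in all KC libraries; of the KC set, 1 of 10 was abundant in hepatocytes. Wfdc17 and Lyz2, macrophage secreted proteins, were at 6064, 6763 and 4773 FPKM and 5368, 5979.8 and 4165 FPKM in KC, respectively. Igfbp4, which binds IGFs, was at 343, 356, 498, 354 and 402 FPKM in LSEC and listed at 0 in KC. Among genes under 10 FPKM in hepatocytes, a restriction whose leading genes were chosen after the values were seen, Bcam, Fbln2, Lhx6, Slc26a10, Slc52a3 and Cdh13 joined the LSEC set, and Csf1r and Mpeg1 the KC set. Lhx6, a transcription factor, was at 1.46, 1.14 and 1.33 FPKM in KC and 215, 357, 142, 369 and 269 FPKM in LSEC. Selp, the adhesion receptor P-selectin, was at 0.289, 0.403 and 2.53 FPKM in KC and 304, 241, 115, 507 and 219 FPKM in LSEC.

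After hepatectomy KC carried more transcripts of cell division than LSEC, but not in every library. S phase genes were higher in KC for 19 of 20 tested, and mitosis genes for 10 of 13 tested. Mean log2(FPKM + 1) of the S phase list was 6.22, 6.27 and 4.03 in PH KC and 2.78, 2.99, 2.48, 3.04 and 2.57 in PH LSEC. The mitosis list was at 3.94, 3.94 and 0.92 in PH KC and 0.78, 1.24, 0.75, 0.70 and 0.84 in PH LSEC, so that KC library 3 lay among the LSEC libraries. In normal liver it was at 2.44 and 2.30 in KC and 1.96, 1.97 and 2.72 in LSEC, above PH KC library 3 and every PH LSEC library. The S phase list was at 3.53 and 3.41 in normal KC and 2.86, 2.95 and 2.78 in normal LSEC. The interaction fit, described below, called 0 of 20 mitosis genes, and 10 of 20 S phase genes as shifted toward KC after PH. Mki67, a marker of cycling cells, was at 27.5, 26.6 and 0.952 FPKM in KC and 0.424, 1.16, 0.565, 0.136 and 0.975 FPKM in LSEC, and Mcm5, a replication helicase subunit, at 194, 204 and 38.1 FPKM in KC and 9.63, 10.2, 6.43, 13 and 6.3 FPKM in LSEC. Without library 3 the counts were 20 of 20 and 20 of 20 tested. That fit needs 1 FPKM in only 2 libraries, so mitosis genes can enter through KC libraries 1 and 2 alone. It also leaves out the KC library that lay among the LSEC libraries, so these counts add no support. Libraries 1 and 2 are also the most alike pair of PH libraries in the 2 populations (r = 0.996), and the labels do not say whether they are separate animals. Library 3 was highest for Hmox1, Ccl3, Ccl9, Gdf15 and Cxcr4 (2.94, 2.81 and 16.9 FPKM), and the part of its makeup in these genes was not tested.

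In normal liver, fitted from 2 KC and 3 LSEC libraries, 2434 of 12186 genes (20%) were called, 1343 (11%) higher in KC and 1091 (8.95%) in LSEC. Without normal KC library 1 these were 830 and 596, and without normal KC library 2 the LSEC-higher genes were 621. Of the 89 uptake genes higher in KC after PH, 73 were also called higher in KC in normal liver, as were 27 of 33 ligands and 40 of 47 receptors (82.0, 81.8 and 85.1%), against 1183 of 2169 KC-higher genes in all (54.5%). Of the LSEC-higher members after PH, 23 of 33 uptake genes, 21 of 44 ligands and 37 of 58 receptors were also called in normal liver (69.7, 47.7 and 63.8%), against 1014 of 2332 LSEC-higher genes in all (43.5%), so the ligand share is near that of all genes. The interaction fit asked whether the KC minus LSEC difference itself changed. There 1670 of 12985 genes (12.9%) were called, 469 (3.61%) with the difference shifted toward KC after PH and 1201 (9.25%) with it shifted toward LSEC. Of ligands 3 of 120 tested shifted toward KC and 32 toward LSEC, of receptors 4 and 47 of 144, and of uptake genes 22 and 18 of 163. Among LSEC markers 15 of 20 shifted toward LSEC, while normal KC libraries stood at 7.91 and 8.29 on the LSEC marker list and PH KC libraries at 4.58, 4.23 and 5.32. The part of LSEC transcripts in normal KC sorts in these changes was not tested. Marco, whose difference grew by 4.39 (SE 0.66, adjusted p = 5.68e-04), was at 338 and 338 FPKM in normal KC and 1.31, 2.07 and 0 FPKM in normal LSEC, against the KC values of 6794 FPKM and above after PH. With a pseudocount of 0.1 the Marco interaction was not called (adjusted p = 0.0973). Trem2, a lipid-sensing receptor of macrophages, grew by 3.15 (SE 0.34, adjusted p = 6.29e-05), from 31.4 and 22.1 FPKM in normal KC to 192, 184 and 285 FPKM in PH KC. Colec12, Ctsz and Gusb grew by 2.81, 1.78 and 1.59. In the other direction, the Wnt2 difference changed by -4.03 (SE 0.40, adjusted p = 3.64e-05): it was at 45.2 and 75.8 FPKM in normal KC and 144, 243 and 203 FPKM in normal LSEC. Kit, the stem cell factor receptor, changed by -4.03 (SE 0.41, adjusted p = 4.09e-05), with 42.4 and 44.2 FPKM in normal KC and 134, 153 and 158 in normal LSEC. Tek and Sdpr changed by -3.79 and -3.54. The genes shifted toward KC numbered 255, 253 and 1068 without PH KC library 1, 2 and 3, and 198 and 139 without normal KC library 1 and 2. Those shifted toward LSEC numbered 776 without normal KC library 2.

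**Figure D5:**
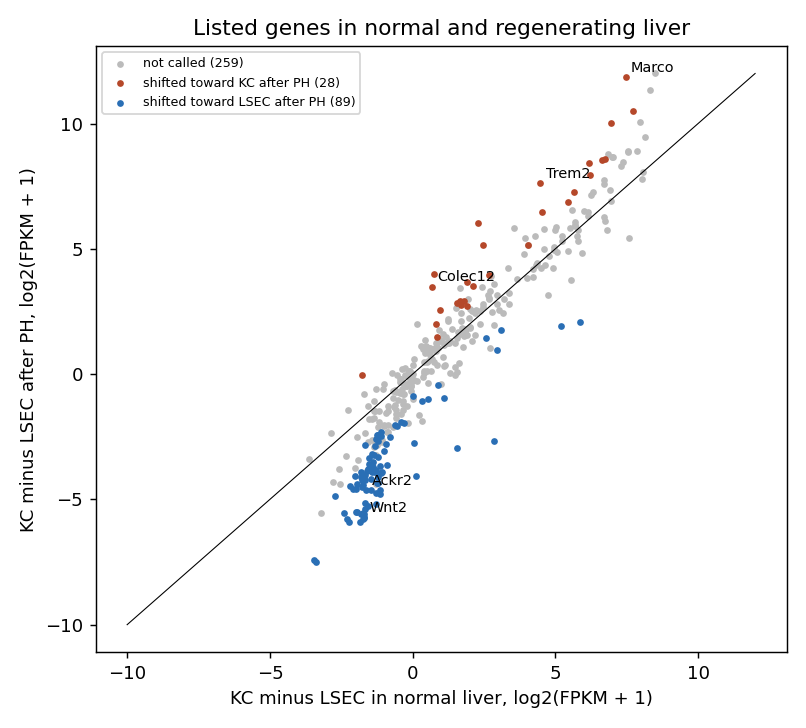
KC minus LSEC difference on the log2(FPKM + 1) scale in normal liver (x axis) and after PH (y axis) for the 376 ligand, receptor and uptake genes tested in both, with the line of equal differences. Genes called as shifted toward LSEC after PH (89) lie below the line, many at the lower left where LSEC are higher, and those shifted toward KC (28) lie above it.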

How the data were processed

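RNA of 10 sorted liver populations was measured, and the 13 KC and LSEC libraries entered the tests. The authors deposited a table of FPKM per RefSeq transcript, a unit taken from the name they gave it; the columns give no unit, and read depth is unknown. The submitters' processing notes name the mm9 build, CASAVA 1.8.2 and Bowtie 1.0.0 with no role; table coordinates are taken as mm9. The table has 36141 rows and 24478 symbols, and the row with the highest mean over 55 libraries was kept for each. Groups follow the titles.

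From these values, log2(FPKM + 1) was modelled in R 4.3.3 (limma 3.58.1, two-sided, trended and robust variances, Benjamini-Hochberg adjustment over all genes tested). A gene entered when its FPKM reached 1 in a number of libraries equal to the smaller group. A difference understates the change of low genes. Calls needed an adjusted p under 0.05 and a difference of 1 or more on the log2 scale; the interaction needed the p alone. Named were the given markers, the 10 leading non-overlapping genes in each direction without predicted or noncoding genes, leading members of each list, genes of the ligand and receptor pairs, and the interaction members of smallest p. A few others were named after their values were seen. The members and lists were chosen with earlier results of these data known. Flvcr1 was not analysed here, and 1 gene that the rule names is not reported here. The fits were tested on simulated data. Tried were a pseudocount of 0.1, no filter, upper-quartile scaling, quantile normalization, one fit of 20 groups, the mean over a symbol's rows, genes under 10 FPKM in hepatocytes, a replicate block, leaving out each library and, chosen after seeing the data, PH KC libraries 1 and 2 as 1. Promoters are RefSeq sequences. Figures used Python 3.11.15 and matplotlib 3.10.9.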

Additional observations from a re-analysis of the deposited data

Results flagged for a closer look

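In PH LSEC, 18 of 215 values examined had a library that stood far from the other 4, where a rate of 1 in 20 gives 10.75. That rate need not hold where the other 4 libraries are at exactly 0. This was so for Apoc1, Ccl3, Ccr3, Egfr, Il18r1, Mst1, Mst1r and Sema3e, so no excess is read from these numbers. On the log2(FPKM + 1) scale, library 1 stood high for Ccl3 (0.42), Fcgr1 (0.19) and Tlr13 (0.098). Library 2 stood high for Csf2ra (1.06), Il18r1 (0.11), Mst1r (0.057), the mesothelial markers (0.36) and the mitosis list (1.24), and low for Pros1 (7.68). Library 3 stood high for Ebi3 (0.59), Fcgr2b (10.20) and Sema3e (0.11). Library 4 stood high for Apoc1 (2.04) and Ccr3 (0.057) and low for C1qa (3.09) and C1qc (2.93). Library 5 stood high for Egfr (0.22) and Mst1 (0.026). Apart from Fcgr2b, Pros1, C1qa, C1qc, Apoc1, Csf2ra and the mitosis list, these are levels under 1.

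The KC minus LSEC difference differed between PH and normal liver for 1670 genes by the interaction term. The interaction values were 4.39 for Marco, 3.15 for Trem2, 2.81 for Colec12, 1.78 for Ctsz and 1.59 for Gusb, and -4.03 for Kit, -4.03 for Wnt2, -3.79 for Tek, -3.54 for Sdpr and -3.00 for Ackr2.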

How the results depend on the processing

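No depth is known, so low values have no counting interval, and PH and normal KC have 3 and 2 libraries. With genes under 10 FPKM in hepatocytes alone, fewer genes were tested, and KC-higher genes after PH numbered 1405, KC-higher uptake genes 48 and interaction shifts toward KC 236. With PH KC libraries 1 and 2 averaged, Ccl2, Cxcl10, Lrp10, Mertk and Stab2 lost their calls, and interaction shifts toward KC numbered 259. Leaving out 1 library at a time gave 2032 to 2580 KC-higher and 2261 to 2383 LSEC-higher genes after PH, 830 to 1398 and 596 to 1239 in normal liver (LSEC-higher 621 without normal KC library 2), and 139 to 1068 interaction shifts toward KC and 776 to 1321 toward LSEC. Ligand counts ran from 30 to 33 and 43 to 46, receptor counts from 44 to 47 and 58 to 61, and uptake counts from 85 to 89 and 31 to 35, KC-higher and LSEC-higher in turn. The cause of these moves was not tested.

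Deviations from the group means correlated at r = -0.114, 0.116 and 0.075 for KC and LSEC libraries of equal replicate number. Unequal numbers gave -0.177 to 0.195. These values cannot tell whether libraries of equal number shared an animal or batch. With the replicate block 2233 and 2413 genes were called after PH, 1425 and 1242 in normal liver, and 358 and 890 in the interaction.

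Directions reversed for genes that were not called. Cxcl12 gave 0.030 with a pseudocount of 0.1, 0.052 with quantile normalization, and 0.57, 0.24 and 0.35 without KC library 3, LSEC library 2 and LSEC library 5. Il1a gave -0.071 with quantile normalization, -0.12 with the block and -0.057 without KC library 3. Lgr4 gave 0.16 with the block, 0.25 without KC library 3 and 0.066 without LSEC library 5. Gdf2 gave -0.20 without LSEC library 4. With 1 library left out, the values ran from -0.48 to 0.57 for Cxcl12, from -0.22 to 0.25 for Lgr4 and from -0.20 to 0.69 for Gdf2. For other named genes, 1562 values with a library left out and 1666 under other settings kept direction and call, 29 and 24 lost the call, and 3 and 4 gained one. Marco's interaction lost its call with a pseudocount of 0.1 (adjusted p = 0.0973).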

Other observations

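The LSEC libraries differed among themselves along genes that other work places in different zones of the lobule. Values were compared after they were seen and no test was made. Stab2 was highest in library 3 (812 FPKM) and lowest in library 4 (71.7 FPKM), and Fcgr2b and Clec4g were highest in library 3 too. Rspo3, Wnt9b, Vwf, Selp and Fbln2 were lowest in library 3 and highest in library 4. Dll4 and Efnb2 did not follow this order: Dll4 was 6.52, 24.4, 23.2, 3.05 and 11.6 FPKM and Efnb2 9.69, 25.6, 18.7, 5.26 and 9.07 FPKM. The sum of the vessel endothelium markers, which include Vwf, Selp and Efnb2, was also lowest in library 3 (787 FPKM) and highest in library 4 (1691 FPKM). The mean LSEC marker level was highest in library 3 (9.36), with 8.42 in library 4 and 8.35 in library 2. The part of vessel endothelium in the order of these libraries was not tested.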
